A study of Mus musculus with 6 samples.

Results

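This account covers the interleukin and interleukin receptor genes of mouse macrophages that were derived in culture from bone marrow. Its members are the genes of the deposited table whose symbol begins with Il and a number, without Il4ra, Il6, Il6ra and Il6st. The rule gave 40 of 17313 genes and used no measured value. RNA-seq was available for 6 libraries, 3 called WT and 3 called KO. All mice were on the C57BL/6 background with floxed Hdac2 alleles (Hdac2fl/fl), had LLC1 lung carcinoma cells injected into a vein, and gave marrow on day 20. The WT mice lacked Cre, and the KO mice also carried LysMCre, a recombinase driven by the lysozyme M gene that is active in the myeloid lineage. Age, sex and the deleted exon are not given in the sources used here. The labels number the libraries within a group without stating whether any of them shared a mouse, so each p-value reflects spread between libraries that may be technical.

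Interleukins are secreted signals between leukocytes and tissue cells. Each acts through a surface receptor built from a binding chain and, often, a chain shared by several cytokines, and decoys or antagonists can block the ligand. Macrophages both make interleukins, such as IL-1, IL-10 and IL-18, and read them through chains such as the IL-10 receptor. Values are read counts scaled per library and rounded to whole numbers, called scaled counts here, with totals from 5704313 to 5837994 per library. Hdac2 checks the labels: the WT libraries 1 to 3 had 534, 482 and 518 scaled counts and the KO libraries 392, 387 and 375. They did not overlap, like the 13.4% of all tested genes that lay entirely lower in KO, and the difference of -0.41 on the log2 scale missed the adjusted threshold of the test described below (limma adjusted p = 0.158).

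WT 1 stood apart from the other WT libraries. Xist, expressed from the inactive X chromosome of female cells, had 5243 scaled counts in that library against 0 and 74 in the other WT libraries, and between 3298 and 4997 in KO. The Y-linked gene Kdm5d had 34, 473 and 482 scaled counts in the WT libraries 1 to 3 against 5, 0 and 0 in KO. Uty, also Y-linked, was at 23, 179 and 432 in WT and was listed at 0 in all KO libraries, so WT 1 lay between the groups for these genes. Of the 10 fibroblast and marrow stroma markers, all 10 were in the table and 9 were tested, and each of the 9 had the higher mean in KO. Their summed level reached 12163 in WT 1 against 5372 and 5244 for WT 2 and WT 3, and ranged from 12888 to 16357 in KO, with Lepr listed at 0 in WT 2 and KO 3. The 10 macrophage markers summed to between 13747 and 14522 in WT and between 13335 and 13737 in KO, so the labelled cell type was present in every library. Of these 10, all tested, 3 had the higher and 7 the lower mean in KO, with a median log2 difference of -0.11. Entirely higher in KO were 0 and entirely lower 6, beside 16.1% and 13.4% of all tested genes. Because WT 1 stood apart, differences between the groups are also given without WT 1 and against WT 1 alone. The plot of differences shows both for every tested member. WT 2 and WT 3 are the libraries with low Xist and low stroma markers, so without WT 1 the genotype cannot be told apart from either difference.

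Of the 31 members that reached 10 scaled counts in 3 or more libraries and were tested, 14 did not overlap between the groups and 17 did. In 7 members every KO library exceeded every WT library: Il1r1, Il1rl2, Il17ra, Il17rc, Il17rd, Il16 and Il34. In 7 others every KO library lay below: Il7r, Il15, Il11ra1, Il12rb2, Il10ra, Il10rb and Il4i1. Over all 13260 genes tested, 16.1% lay entirely higher and 13.4% entirely lower. Il12rb1 and Il34 reached 10 in fewer than 3 WT libraries and so passed the filter only through KO.

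The test was limma with an intensity trend on log2(scaled count + 1), adjusted over all 13260 genes by the Benjamini-Hochberg method. No member passed an adjusted p of 0.05, and 0% of all genes did (smallest adjusted p = 0.158, reached by several members). At an unadjusted p under 0.05 there were 7 members higher and 7 lower, against 14.7% higher and 9.68% lower among all genes. The median log2 difference was 0.05 over the tested members and -0.0046 over all genes, and the median size without regard to sign was 0.35 against 0.14. Without WT 1 the adjusted threshold was passed by 7 members higher in KO and 4 lower, where the background was 12.8% higher and 5.07% lower. Against WT 1 alone 0 members passed, and 2 had an unadjusted p under 0.05, Il16 higher and Il7r lower, beside a background of 6.23%. In that comparison 11 members lay entirely above WT 1 and 11 entirely below it, with a background of 28.4% and 24.6%.

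**Figure D1:**
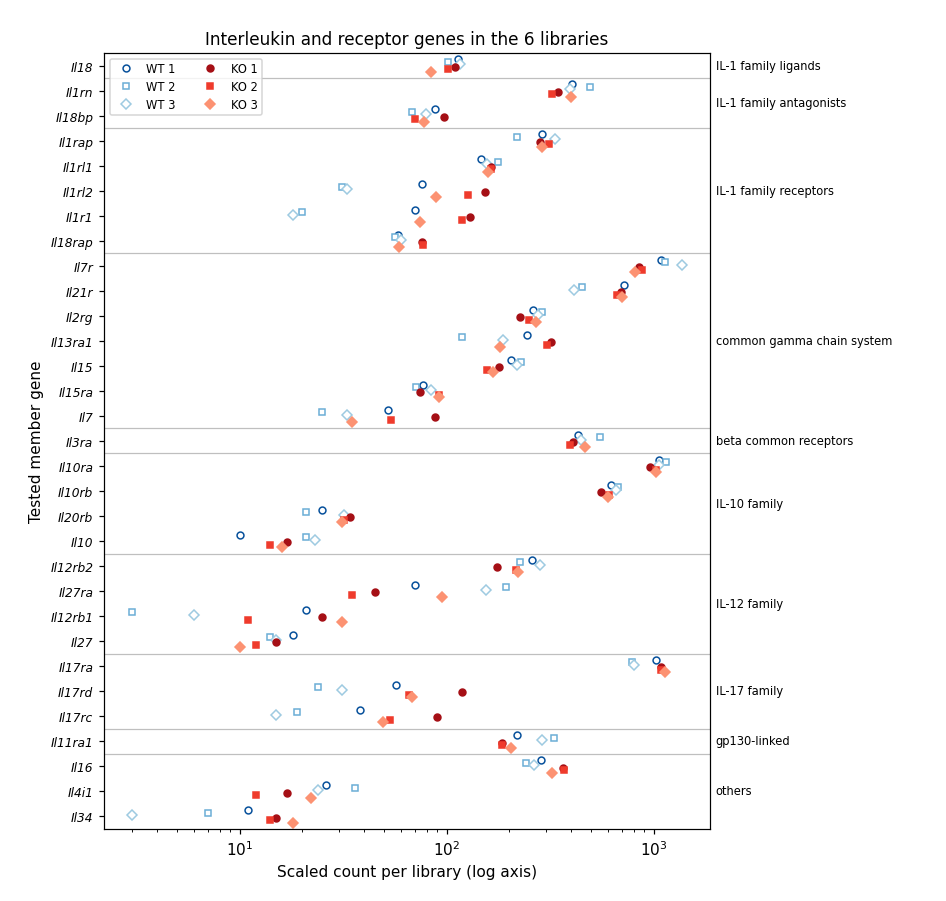
Scaled count of each of the 31 tested members (rows, grouped by cytokine family) in each library, on a log axis, with open symbols for WT and filled symbols for KO. Il10ra, Il7r and Il17ra are the most abundant in every library, whereas Il1r1, Il1rl2, Il17rc and Il17rd have WT 2 and WT 3 lowest, then WT 1, then KO.

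Ligands of the IL-1 family were low or similar in both groups. Il1a and Il1b, the classical inflammatory IL-1 cytokines, had 8, 1 and 12 and 8, 1 and 5 scaled counts in the WT libraries 1 to 3, and 4 to 7 and 4 to 8 in KO, below the filter. Il18, which drives interferon gamma production by lymphocytes, was at 113, 101 and 116 in WT against 110, 101 and 84 in KO, with overlapping groups and a log2 difference of -0.17 ± 0.136 (SE, limma adjusted p = 0.492).

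The natural brakes on this family also overlapped. Il1rn, which encodes the IL-1 receptor antagonist, was at 401, 494 and 393 scaled counts in WT and at 345, 322 and 399 in KO, with KO 3 inside the WT range. Its log2 difference was -0.27 ± 0.121 (limma adjusted p = 0.233). Il18bp, the soluble trap for IL-18, averaged 78.3 ± 10 in the WT and 81.7 ± 13.9 in the KO libraries (SD, n = 3 each).

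All 5 receptor chains of the IL-1 family among the members had the higher mean in KO. The sign turned for Il1rl1 under cyclic loess scaling (-0.01) and without WT 1 (-0.04), and for Il1rap without WT 2 (-0.08). The 2 that did not overlap were the binding chains for IL-1 and IL-36. Il1r1, which encodes the signalling IL-1 receptor, had 70, 20 and 18 scaled counts in the WT libraries 1 to 3 and 130, 118 and 74 in the KO libraries 1 to 3, the order used throughout. WT 1 came within 4 counts of KO 3, far above the other WT libraries. The means were 36 ± 29.5 and 107 ± 29.5 (SD, n = 3), and the log2 difference was 1.79 ± 0.544 (limma adjusted p = 0.158). Without WT 1 it was 2.40 (adjusted p = 0.0033), and against WT 1 alone 0.57.

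Il1rl2, the receptor for IL-36 cytokines, had the same order of libraries. It stood at 76, 31 and 33 scaled counts in WT and at 153, 126 and 89 in KO, a log2 difference of 1.46 ± 0.39 (limma adjusted p = 0.158). Without WT 1 this was 1.87 (adjusted p = 0.0055), and against WT 1 alone 0.65. In bulk RNA, more cells of a type cannot be told apart from more RNA per cell. The summed stroma markers had the same order, with WT 2 and WT 3 lowest, then WT 1, then KO. The lower sums of the B cell, mast cell or basophil and dendritic cell markers had this order too. The part of these cell types in the result was not tested.

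The shared coreceptor and the neighbouring receptor genes lay closer together. Il1rap, the accessory chain that IL-1, IL-33 and IL-36 receptors share, was at 290, 218 and 332 scaled counts in WT and at 282, 312 and 288 in KO, with all KO libraries inside the WT range. Il1rl1, the IL-33 receptor, was at 160 ± 15.4 and 162 ± 3.46, and Il18rap, the accessory chain of the IL-18 receptor, at 58 ± 2 and 70.7 ± 10.1 (SD, n = 3). Il1r1, Il1rl2, Il1rl1 and Il18rap sit in this order on chromosome 1 within 326626 bases, from 40225080 to 40551705 (mm10), and Il1r1 ends 7352 bases before Il1rl2 starts. Il1r1 and Il1rl2 were without overlap, and Il1rl1 and Il18rap overlapped.

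The IL-17 receptor chains had the largest median log2 difference of any family, 1.19, and all 3 tested members lay entirely higher in KO. Il17ra, the chain that IL-17 receptors share, was by far the most abundant at 1028, 782 and 800 scaled counts in WT and 1089, 1080 and 1131 in KO, or 100 ± 15.8 against 127 ± 3.14 per kilobase of exon (SD, n = 3). WT 1 lay near KO, and the log2 difference was 0.35 ± 0.109 with all libraries (limma adjusted p = 0.158). Without WT 1 it was 0.48 (adjusted p = 0.0029), and against WT 1 alone 0.10.

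Il17rc, the partner of Il17ra for IL-17A and IL-17F, was at 38, 19 and 15 scaled counts in WT and at 90, 53 and 49 in KO. Per kilobase of exon this was 8.99 in WT and 24.0 in KO. The log2 difference was 1.43 ± 0.406 (limma adjusted p = 0.158), with 1.81 without WT 1 (adjusted p = 0.0149) and 0.68 against WT 1 alone. Il17rd, a membrane protein that also restrains fibroblast growth factor signalling, was at 57, 24 and 31 in WT against 119, 66 and 68 in KO. KO 1 stood well above the other KO libraries, and WT 1 was the WT library nearest to them. Its log2 difference was 1.19 ± 0.384 (limma adjusted p = 0.159), with 1.54 without WT 1 (adjusted p = 0.0229) and 0.50 against WT 1 alone. The ligand Il17d was at no more than 7 in any library.

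The promoters of the 4 receptor genes with the largest differences among those without overlap, and of Il1rap as the coreceptor that overlapped, show whether these genes share the GC box, the sequence known for binding SP1, which the title of the study names beside HDAC2. Capitals mark GGGCGG or its reverse complement CCGCCC, and each line is the stretch of up to 250 bases before the RefSeq start that lies outside the annotated gene (GRCm38.p6).
Il1r1, chr1:40224830-40225079, plus strand: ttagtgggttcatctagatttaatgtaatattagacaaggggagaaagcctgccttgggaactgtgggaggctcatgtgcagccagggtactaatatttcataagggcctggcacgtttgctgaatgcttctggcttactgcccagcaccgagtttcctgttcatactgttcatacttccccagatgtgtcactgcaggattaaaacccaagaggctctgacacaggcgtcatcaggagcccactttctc
Il1rl2, chr1:40324339-40324588, plus strand: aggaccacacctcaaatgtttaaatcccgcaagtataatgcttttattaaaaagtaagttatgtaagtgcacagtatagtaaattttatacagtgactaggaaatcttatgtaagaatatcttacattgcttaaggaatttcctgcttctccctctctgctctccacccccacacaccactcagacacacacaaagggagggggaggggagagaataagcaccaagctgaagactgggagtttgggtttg
Il17rc, chr6:113471205-113471426, plus strand: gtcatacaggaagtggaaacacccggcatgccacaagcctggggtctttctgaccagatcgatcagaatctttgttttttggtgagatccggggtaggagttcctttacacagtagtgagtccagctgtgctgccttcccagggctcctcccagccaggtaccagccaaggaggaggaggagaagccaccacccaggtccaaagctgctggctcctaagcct
Il17rd, chr14:27038751-27038940, plus strand: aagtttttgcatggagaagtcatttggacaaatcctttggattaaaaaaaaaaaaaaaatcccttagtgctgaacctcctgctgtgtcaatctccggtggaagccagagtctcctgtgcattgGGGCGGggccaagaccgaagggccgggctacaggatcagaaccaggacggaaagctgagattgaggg
Il1rap, chr16:26581455-26581703, plus strand: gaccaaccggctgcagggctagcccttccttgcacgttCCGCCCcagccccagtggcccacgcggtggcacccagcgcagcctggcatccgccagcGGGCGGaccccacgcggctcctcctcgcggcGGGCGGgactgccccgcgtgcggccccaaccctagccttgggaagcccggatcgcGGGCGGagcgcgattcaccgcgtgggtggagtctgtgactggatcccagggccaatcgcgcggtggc

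In the printed stretches the GC box appears 1 time in Il17rd and 4 times in Il1rap. In the full 250 bases Il17rd holds 2, as 60 of its bases lie inside the annotated gene and are not printed. The letters of the GC box are not in the windows of Il1r1, Il1rl2 and Il17rc. Of the 28 members with a RefSeq promoter, 8 held it on either strand in the 250 bases before the start, 28.6% against 32.7% of all 32851 windows. Among matched members it was in 1 of 5 that lay entirely higher in KO, 1 of 4 entirely lower and 5 of 12 that overlapped. A match describes the letters and is not a measured binding site.

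Receptors and ligands of the common gamma chain system went in both directions. Il7r, the binding chain for IL-7, had the smallest p of all members. It was at 1087, 1129 and 1369 scaled counts in WT and at 848, 873 and 810 in KO, 256 ± 32.6 against 181 ± 6.80 per kilobase of exon (SD, n = 3). Here WT 1 lay with the WT libraries. The log2 difference was -0.49 ± 0.094 (limma adjusted p = 0.158), -0.56 without WT 1 (adjusted p = 0.0127) and -0.37 against WT 1 alone.

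Il15, which encodes a cytokine that sustains natural killer and memory T cells, was also lower in every KO library. It stood at 205, 228 and 218 scaled counts in WT and at 179, 157 and 167 in KO, a log2 difference of -0.37 ± 0.085 (limma adjusted p = 0.158). Without WT 1 this was -0.41 (adjusted p = 0.0357), and against WT 1 alone -0.29. Its presenting receptor Il15ra overlapped, at 77.3 ± 6.51 and 86 ± 10.4, as did the ligand Il7, at 36.7 ± 13.9 and 59 ± 26.9 (SD, n = 3). The common gamma chain itself, Il2rg, was at 275 ± 15 and 248 ± 22.5. This gene lies on the X chromosome and shares 728 exonic bases with the model Gm20489 on the same strand.

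Il21r, which binds IL-21, separated WT 1 from the other WT libraries. WT 1 had 717 scaled counts against 450 and 414 for WT 2 and WT 3, and the KO libraries had 692, 661 and 701. WT 1 was above all KO libraries. The log2 difference was 0.42 ± 0.203 (limma adjusted p = 0.26), 0.66 without WT 1 (adjusted p = 0.0020) and -0.07 against WT 1 alone. The receptor chain Il13ra1, which pairs with the IL-4 receptor and lies on the X chromosome, was at 245, 119 and 187 in WT against 320, 304 and 181 in KO, with KO 3 inside the WT range. Il2ra and Il2rb, chains of the IL-2 receptor, and Il9r were below the filter.

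In the other receptor systems Il10ra, Il10rb, Il3ra and Il11ra1 each had the lower mean in KO, while Il10 and Il20rb were low and overlapped. Il10ra, the binding chain for the anti-inflammatory cytokine IL-10, had the highest level of any member per kilobase of exon, with 311 ± 14.9 for WT and 287 ± 12.3 for KO (SD, n = 3). Its scaled counts were 1059, 1148 and 1056 in WT and 955, 1031 and 1028 in KO, a gap of 25 between the nearest libraries of the groups and a log2 difference of -0.11 ± 0.057 (limma adjusted p = 0.269). Under cyclic loess scaling the groups of Il10ra overlapped and the difference was -0.04. Il10rb, the chain that IL-10 and its relatives share, was at 623, 675 and 659 and at 557, 611 and 602, a log2 difference of -0.15 ± 0.058 (limma adjusted p = 0.198), and it shares 569 exonic bases with the model Gm21970 on the same strand. Il10 itself was at 18 ± 7 and 15.7 ± 1.53, and WT 1 at 10 lay below every KO library. Il20rb, a chain of receptors for IL-20 and its relatives, was at 25, 21 and 32 in WT against 34, 32 and 31 in KO, a log2 difference of 0.32 ± 0.213 (limma adjusted p = 0.392).

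Il3ra, the IL-3 binding chain, was at 432, 553 and 446 scaled counts in WT and at 409, 396 and 464 in KO, with KO 3 inside the WT range. Il11ra1, the IL-11 binding chain, was at 219, 330 and 289 in WT against 184, 184 and 205 in KO. WT 1 lay nearest to KO, and the log2 difference was -0.53 ± 0.157 (limma adjusted p = 0.158), -0.69 without WT 1 (adjusted p = 0.0078) and -0.20 against WT 1 alone. Il11ra1 has a near-identical relative, Il11ra2, and how reads of the pair were divided is not stated.

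In the IL-12 family the receptor chains lay on both sides. Il12rb2, the signalling chain of the IL-12 receptor, was at 258, 227 and 281 scaled counts in WT and at 174, 217 and 220 in KO, a log2 difference of -0.33 ± 0.127 (limma adjusted p = 0.19). Its exons share 1519 bases with Serbp1 on the opposite strand, which was at 1093 to 1235 in all libraries with overlapping groups, and the strand used for counting is not stated. Il27ra, the IL-27 receptor, was at 70, 193 and 155 in WT against 45, 35 and 95 in KO, so WT 1 fell inside the KO range. The log2 difference was -1.25 ± 0.502 (limma adjusted p = 0.198), -1.68 without WT 1 (adjusted p = 0.0447) and -0.39 against WT 1 alone. Il12rb1, the chain that IL-12 and IL-23 receptors share, was at 21, 3 and 6 and at 25, 11 and 31, also with WT 1 inside the KO range.

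Of the remaining members, Il16, the gene of a chemoattractant for CD4+ cells, was at 285, 241 and 264 scaled counts in WT and at 363, 370 and 324 in KO. WT 1 lay with the WT libraries. The log2 difference was 0.42 ± 0.089 (limma adjusted p = 0.158), 0.48 without WT 1 (adjusted p = 0.0196) and 0.30 against WT 1 alone. Its exons share 1202 bases with Stard5 on the opposite strand, which was at 230, 304 and 317 in WT against 224 to 232 in KO.

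Il34, an alternative ligand of the M-CSF receptor, was at 11, 7 and 3 scaled counts in WT and at 15, 14 and 18 in KO (log2 difference 1.19 ± 0.456, limma adjusted p = 0.186). It was low in every library and reached the filter through KO. Il4i1, an amino acid oxidase named for its induction by IL-4, was at 26, 36 and 24 in WT against 17, 12 and 22 in KO (log2 difference -0.74 ± 0.299, limma adjusted p = 0.202). Of its exonic bases 3423 are shared with Tbc1d17 on the opposite strand, at 407 to 530 in all libraries with overlapping groups, so its few counts cannot be told from that gene without strand.

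**Figure D2:**
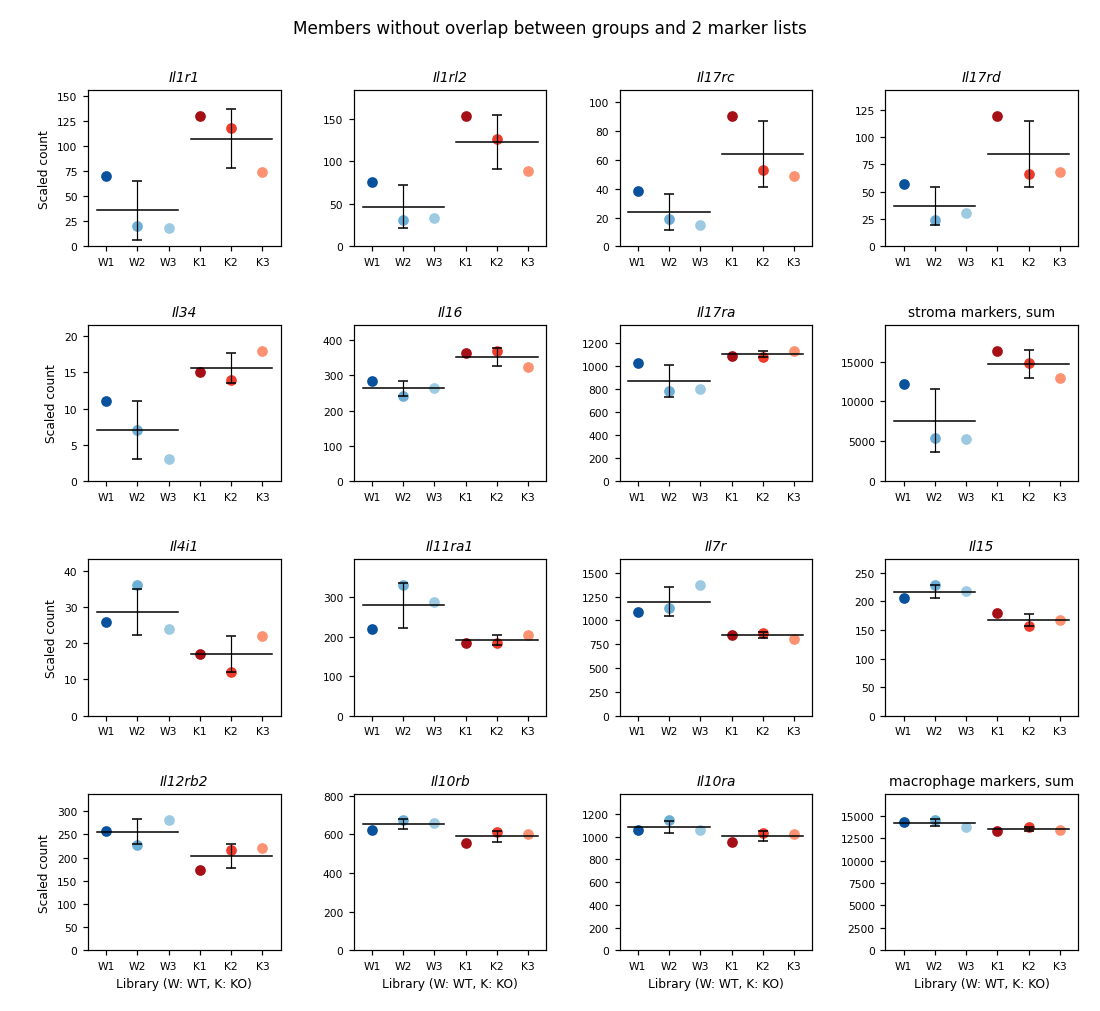
Scaled count in each library (W: WT, K: KO) for the 7 members entirely higher and the 7 entirely lower in KO, with the summed stroma and macrophage markers, where lines are group means and bars are SD (n = 3). In the upper rows WT 1 lies above WT 2 and WT 3 for all 7 members and for the stroma markers, while Il7r, Il15 and Il12rb2 in the lower rows have WT 1 within or next to the other WT libraries.

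The 9 members below the filter were at most at 14 scaled counts. Il20ra, a chain of the IL-20 receptor, was at 2, 1 and 1 in WT against 14, 10 and 4 in KO, and Il11, a cytokine made by stromal cells, at 3, 0 and 1 and at 6, 7 and 5. These 2 were without overlap and were not in the main test. The other 7 were Il1a, Il1b, Il2ra, Il2rb, Il9r, Il17d and Il22ra2.

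The position of WT 1 differed between the higher and the lower members. Among the 7 entirely higher in KO, WT 1 was above WT 2 and WT 3 in 7 and nearer to the KO mean than to the mean of WT 2 and WT 3 in 6, with Il16 as the exception. Among the 7 entirely lower it was below WT 2 and WT 3 in 4 (Il7r, Il15, Il11ra1 and Il10rb) and nearer to KO in 2, Il11ra1 and Il10rb. The 5 members without overlap that did not pass without WT 1 kept their direction in both comparisons. Without WT 1 and against WT 1 alone the log2 differences were 1.55 and 0.47 for Il34, -0.80 and -0.62 for Il4i1, -0.32 and -0.35 for Il12rb2, -0.18 and -0.08 for Il10rb, and -0.13 and -0.08 for Il10ra. Over all tested members WT 1 was nearer to KO in 19 of 31 (61.3%), and over all genes tested for 66.4%.

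**Figure D3:**
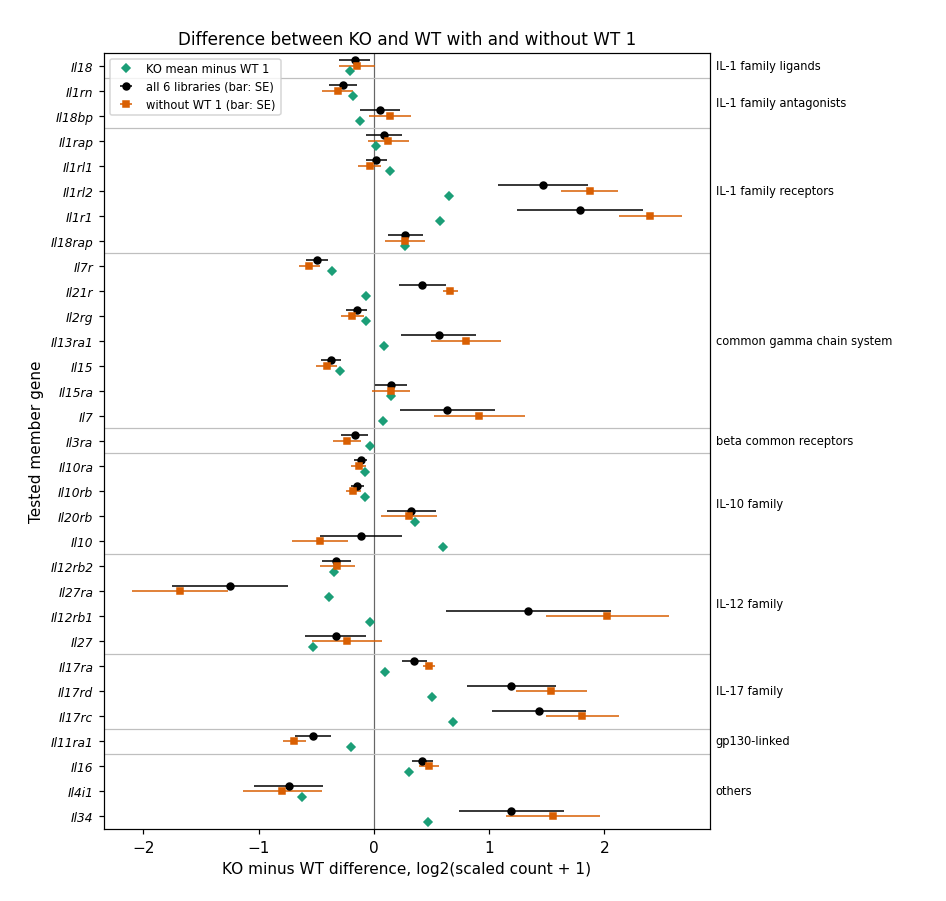
Difference between KO and WT on the log2(scaled count + 1) scale for the 31 tested members, with all 6 libraries (circles), without WT 1 (squares) and as the KO mean minus WT 1 (diamonds), where bars are SE. Il1r1 drops from 2.40 without WT 1 to 0.57 against WT 1 and Il27ra from -1.68 to -0.39, while Il7r, Il15 and Il16 change less.

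Most genes listed as carrying, releasing or restraining these signals had a lower mean in KO, beside 6750 of all 13260 genes tested. Of 28 receptor partners and signalling genes 26 were tested, 8 with a higher and 18 with a lower mean in KO, and 1 lay entirely higher and 8 entirely lower (16.1% and 13.4% of all genes). Their median log2 difference was -0.10 (-0.0046 over all genes and -0.11 over the 10 macrophage markers). Under cyclic loess scaling the median of the partners and signalling genes was -0.045. Of them 0 passed the limma adjusted threshold, with 1 higher and 7 lower at an unadjusted p under 0.05 (14.7% and 9.68% of all genes). The median was -0.11 when WT 1 was left out, where the adjusted threshold was passed by Sigirr, higher, and by Csf2rb and Csf2rb2, lower, beside the background of 12.8% and 5.07%. Against WT 1 alone the median was -0.04. Csf2rb, the chain that IL-3, IL-5 and GM-CSF receptors share, was at 1232, 1687 and 1431 scaled counts in WT and at 1013, 1099 and 1184 in KO, and its near-identical relative Csf2rb2, which can share reads, at 1373, 1903 and 1580 and at 1067, 1207 and 1312. The adaptor Myd88 of the IL-1 receptor family was at 611 ± 34.3 and 517 ± 32.9, and Sigirr, an inhibitory relative of that family, at 27, 13 and 15 in WT against 40, 31 and 35 in KO.

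Of 12 genes listed for the maturation and release of IL-1 and IL-18 or its restraint, all were tested. There were 2 with a higher and 10 with a lower mean in KO, 0 entirely higher and 5 entirely lower, beside the same backgrounds. The median was -0.12 (-0.075 under cyclic loess scaling) and 0 passed the limma adjusted threshold. At an unadjusted p under 0.05, 0 were higher and 5 lower (14.7% and 9.68% of all genes). When WT 1 was left out the median was -0.14. In that fit Casp1 and the protease inhibitor gene Serpinb1a passed, both lower, beside 12.8% higher and 5.07% lower among all genes. Against WT 1 alone the median was -0.15. Casp1, the protease that cleaves both cytokines, was at 501, 541 and 601 scaled counts in WT and at 455, 426 and 438 in KO. Gsdmd, which forms the pore through which they leave, was at 565 ± 39.5 and 480 ± 34.3, and the sensor Nlrp3 at 816 ± 129 and 838 ± 26.6 (SD, n = 3).

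Markers of other cells that read or make interleukins differed in level, and the osteoclast and endothelial sums exceeded the lymphoid, mast cell, neutrophil and dendritic cell sums in every library. Of 8 T cell markers 3 were in the table and summed to 128 to 167 scaled counts in WT and 164 to 216 in KO, mostly Cd4. Of 6 natural killer or innate lymphoid markers 1 was in the table, at 11 to 23 and 17 to 21. Of 6 B cell markers 3 were, summing to 49 to 248 and 280 to 344, mostly Ebf1, which stromal cells also express. Of 8 mast cell or basophil markers 5 were, summing to 33 to 66 and 76 to 149. Mcpt8, Gata2 and Mcpt4 had the higher mean in KO, and Kit and Hdc the lower. Neutrophil markers (1 of 8) stood at 20 to 26 and 9 to 15, dendritic cell markers (2 of 7) at 18 to 41 and 44 to 52, and osteoclast markers (6 of 7) at 750 to 1939 and 471 to 728. Endothelial markers (6 of 6) summed to 820 to 1470 and 499 to 818, mostly Vwf, which had the lower mean in KO. The other 3 of the 4 endothelial markers tested had the higher mean in KO, and the median log2 difference of the 4 was 0.44. Mcpt4 was at 0 in all WT libraries, and no listed marker was at 0 in all 6. Their part in the differences of the interleukin genes was not tested.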

How the data were processed

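Poly(A) RNA of 6 libraries was made with a stranded mRNA kit from 3 µg of total RNA and read as single reads of 72 bases, per the labels' protocols. Tools listed in the submitters' processing notes are DESeq2 1.36.0, featureCounts 2.0.3, Picard 2.27.4, STAR 2.7.10a and Trimmomatic 0.39, and the build is mm10, with no step assigned to any tool. The deposited numbers were handled as a score, that is counts normalized per library and rounded to whole numbers: their totals are nearly equal, and in WT 2 the values 6, 17, 29, 40 and 52 never occur, as scaling and rounding leave. Exact reads and depth are therefore unknown, neither a count model nor a counting interval was used. Groups came from the genotype label.

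The fit used limma 3.58.1 (R 4.3.3) on log2(value + 1) with an intensity trend and a two-sided test of group, over genes that reached 10 in 3 or more libraries. Differences are written as KO minus WT, and they understate the change of low genes. The fit was tested on simulated data. Exonic lengths are the union of exons in GENCODE M21, in which all 40 members have the deposited start and end and 15 share exonic bases with another gene. Promoters are RefSeq windows (GRCm38.p6), the one nearest the annotated 5′ end per gene. Tables and figures were made with Python 3.11.15, pandas 2.3.3 and matplotlib 3.10.9. Alternatives were other scalings, filters, pseudocounts and variance models, leaving out libraries, and the replicate number as a block.

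The members, gene lists and alternatives were chosen with earlier results of these data known. Values in every library are given for tested members without overlap or with an unadjusted p under 0.05, and for the most abundant of each family. Il21r, Il1a, Il1b, Il13ra1, Il20rb, Il12rb1, Il20ra, Il11 and the pathway genes named were chosen after their values were seen.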

Additional observations from a re-analysis of the deposited data

How the results depend on the processing

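The count of genes past the limma adjusted threshold ranged from 0 to 2363 over the fits that leave out 1 library each, and that of members from 0 to 11, both with the high end without WT 1 and 0 in every other such fit. Members with an unadjusted p under 0.05 numbered 14 with all libraries and 5 to 15 with 1 library left out, 7 without WT 2, 5 without WT 3, 7 without KO 1 and 9 without KO 2. Over all genes 24.4% had such a p with all libraries. Without WT 1 this was 32.8%, beside 15 of the 31 members. With WT 1 standing alone for its group, on the assumption that its spread equals that of KO, they numbered 2, and 22 members lay entirely to one side. Without overlap were 14 members with all libraries and 15 to 21 with 1 left out, where fewer libraries make overlap less likely. The share over all genes rose likewise, from 29.5% with all libraries to 49.7% without WT 1, where 20 members did not overlap. A mean of at least 100 as the filter left 16 members to test, 7 of them with an unadjusted p under 0.05 and 8 without overlap. The shares over all genes under this filter and with any other library left out are not given here. Among 481 values of the 31 tested members under the 16 alternatives, 12 changed sign, in 6 members, and 11 passed the adjusted threshold, all without WT 1. Against WT 1 alone the sign turned for Il10 (0.5953), Il12rb1 (-0.0310), Il18bp (-0.1197) and Il21r (-0.0669), and under cyclic loess for Il18bp (-0.0478) and Il1rl1 (-0.0096). With 1 library left out the differences ran from -0.4674 to 0.0953 for Il10, from -0.0753 to 0.1572 for Il18bp, from -0.0789 to 0.2234 for Il1rap and from -0.0367 to 0.0965 for Il1rl1. The cause of these shifts was not tested.

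Replicate numbers are shared between the groups. WT 1 and KO 1 deviated together (r = 0.534 across genes), but WT 2 and KO 2 (-0.364) and WT 3 and KO 3 (0.0238) did not. The numbers were therefore not taken to pair the libraries. With the number as a replicate block 0 genes and 0 members passed, and 11 of the 31 members had an unadjusted p under 0.05. The share over all genes with such a p in this fit is not given here, so the 11 cannot be read as particular to the members. No alternative scaling moved the median of all genes by more than 0.1 on the log2 scale. Depth per library is unknown, and members below about 10 scaled counts, such as Il1b, could not be compared. No outlier test was run within groups of 3.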
